A study of Homo sapiens with 13 samples.

Results

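The 43 genes described here encode the machinery of autophagy and the lysosome, and were taken as a fixed list of symbols matched to the gene symbols printed in the array files. They fall into 26 genes of the autophagy machinery and 17 lysosomal genes, measured by 64 probes of the 42405 on the array. All 43 had a probe bright enough to be tested, among 28931 features (genes, or probes without a gene symbol). The rule uses no measured value, but the list was drawn up with earlier results of these data known.

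In autophagy a membrane sac closes around cytoplasm and fuses with the lysosome, whose acid hydrolases break the contents down. The ULK kinases and the PIK3C3 lipid kinase complex start the sac, a pair of ubiquitin-like conjugation systems attaches ATG8 proteins such as LC3 to it, and cargo receptors tie the load to those ATG8 proteins. Many lysosomal genes carry the CLEAR motif, a palindrome bound by the MiT/TFE transcription factors TFEB, TFE3 and MITF. G9a, the histone H3 lysine 9 methyltransferase encoded by EHMT2, has been described as a repressor of LC3B (MAP1LC3B), WIPI1 and DOR (TP53INP2), which is why autophagy genes are of interest when G9a is inhibited or removed.

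Total RNA of HEK293T, a human embryonic kidney line carrying the SV40 large T antigen, was compared on 13 Agilent 8x60K arrays, each of which held a treated RNA in 1 dye and its control RNA in the other. UNC0638, a small-molecule inhibitor of the catalytic activity of G9a and its partner GLP, was given at 1 µM for 48 h against an equal volume of DMSO in 5 biological replicates. Knockdown was by siRNA: one directed at WIZ, the zinc finger partner of the G9a and GLP complex, and one directed at G9a. They were each set against scrambled control siRNA at 72 h, after transfection with DharmaFECT 4, in 2 biological replicates apiece. UNC0638 replicates 1 and 2 and both WIZ replicates were hybridised in both dye orientations, whereas UNC0638 replicates 3 to 5 and both G9a replicates had the treated RNA in Cy5 alone. Every group is this 1 line, and whether control RNA was common to both siRNA treatments is not stated in the labels.

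All values below are ratios of treated to control on the log2 scale, so that 1 is a doubling. A gene was called where limma's adjusted p (Benjamini-Hochberg over all 28931 features of that comparison) was under 0.05. EHMT2 was at -1.67 and -1.65 in the 2 G9a siRNA replicates and WIZ at -2.26 and -1.97 in the WIZ siRNA replicates, and both were called. The array files do not say which channel holds which dye. It was read from these same target genes, so their decrease does not check the overall direction independently. The smallest Cy3 background SD on an array, 4 or 5 for UNC0638 replicates 1 and 2 and WIZ siRNA (8 arrays) and 11 for UNC0638 replicates 3 to 5 and G9a siRNA (5 arrays), parted the arrays into a set 1 and a set 2. The share of probes well above background ran from 47.8% to 92.7% and was lowest in the treated RNA of G9a replicate 2. All 10 markers fixed for the HEK293T line were well above background on all 13 arrays. A list of macrophage and myeloid markers was fixed as well. Of these CD14 was well above background in both channels of all 13 arrays, and CD163 in 2 treated and 1 control channels. LYZ was not on the array, and the rest ranged between CD163 and CD14. Detection by this measure thus does not identify the line.

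Since the lysosomal members are grouped by a motif in textbook accounts, the stretches that hold it are shown first. RefSeq promoters (GRCh38.p14) were found for 35 of the 43 members, and the 250 bases before each start were searched on both strands for CACGTG, the core of the CLEAR motif, and for the longer TCACGTG and TCACGTGA, each of which contains the core. Every TCACGTG, on either strand, and every TCACGTGA is in capitals. Each stretch runs 5′ to 3′ along the gene, from 20 bases before its first match to at most 20 bases after its last, and ends before the start.
MCOLN1: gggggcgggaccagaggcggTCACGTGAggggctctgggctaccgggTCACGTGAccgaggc
CTSA: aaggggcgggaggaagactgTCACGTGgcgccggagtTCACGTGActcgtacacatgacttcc
ATP6V0D1: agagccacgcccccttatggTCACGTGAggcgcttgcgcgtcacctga
CTSD: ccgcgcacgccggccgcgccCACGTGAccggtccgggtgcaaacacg
LAMP1: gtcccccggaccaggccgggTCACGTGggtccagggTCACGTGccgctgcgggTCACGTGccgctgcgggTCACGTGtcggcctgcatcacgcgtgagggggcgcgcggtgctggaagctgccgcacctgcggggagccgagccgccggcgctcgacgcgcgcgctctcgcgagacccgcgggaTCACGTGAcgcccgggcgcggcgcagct
NEU1: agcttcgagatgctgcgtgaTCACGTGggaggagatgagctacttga
ATG14: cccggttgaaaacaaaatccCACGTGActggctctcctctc
ATG3: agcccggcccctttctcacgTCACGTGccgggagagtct
These lie at chr19:7522562-7522623 (plus strand), chr20:45891272-45891334 (plus), chr16:67481190-67481237 (minus), chr11:1763948-1763994 (minus), chr13:113297026-113297237 (plus), chr6:31862922-31862968 (minus), chr14:55411831-55411871 (minus) and chr3:112561963-112562001 (minus).

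TCACGTGA stood in 4 of the 11 lysosomal members with a promoter (LAMP1, MCOLN1, CTSA, ATP6V0D1), in 0 of 24 members of the autophagy machinery and in 0.89% of all 27305 promoters. CACGTG stood in 6 of the 11 lysosomal members, which adds CTSD and NEU1, in 2 of the 24 autophagy members (ATG14 and ATG3) and in 6.49% of all promoters. LAMP1 held 5 separate matches of TCACGTG, MCOLN1 and CTSA 2 each, and the other members shown 1. A match is a description of these letters and does not show a bound site.

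No member was called under UNC0638. The counterpart over all features was 3.65% called. At an unadjusted p under 0.05, 4 members were higher and 6 lower, beside 9.18% and 11.6% of all features, so the members' share was close to that of the array. The median log2 ratio over the 43 members was -0.01, with 20 above 0 and 23 below, and the same median over all features was -0.01.

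MAP1LC3B, which encodes the LC3B protein that coats the autophagic membrane, was at -0.13, 0.04, 0.26, 0.04 and 0.35 in UNC0638 replicates 1 to 5, with a mean of 0.11 (95% confidence interval of the fit -0.06 to 0.28, adjusted p = 0.425, limma). The replicates lay on both sides of 0 by this probe, which also matches MAP1LC3B2. A probe assigned to MAP1LC3B alone, given below, was above 0 in all 5 replicates. WIPI1, a reader of the lipid made by PIK3C3, was at -0.23, 0.05, -0.22, -0.20 and -0.44, with a mean of -0.21 (interval -0.39 to -0.03, adjusted p = 0.191). WIPI1 was thus below 0 in 4 of 5 replicates, and the interval holds no increase. TP53INP2, the third of the genes described as G9a targets and no member of the 43, was at 0.08, -0.21, 0.11, 0.38 and -0.33, on both sides of 0.

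The members with the largest mean ratios under UNC0638 were carried by some replicates more than others. TPP1, a lysosomal protease, was at 0.06, 0.00, -1.54, -0.92 and 0.15 in replicates 1 to 5, for a mean of -0.45 (SE 0.25). Only replicates 3 and 4 were low. MCOLN1, the lysosomal calcium channel, was at 0.18, -0.02, -0.84, -0.19 and -0.23, lowest again in replicate 3. ATP6V1H, a subunit of the proton pump, was at 0.09, -0.08, 0.37, 0.63 and 0.64, for a mean of 0.33 (SE 0.10, adjusted p = 0.129). Its 3 higher values are those of array set 2. ATG3, which loads LC3 onto its lipid, was at -0.02, 0.07, 0.47, 0.29 and 0.25. PIK3C3, the lipid kinase itself, was below 0 in all 5 replicates (-0.16, -0.10, -0.27, -0.38 and -0.13) and had an adjusted p of 0.0705.

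With every kept probe as a feature of its own, a probe of LAMP2, a lysosomal membrane glycoprotein, passed under UNC0638 (0.31, adjusted p = 0.0274) and so did a probe of ULK2, a kinase that starts autophagy (-0.23, adjusted p = 0.0409). The brighter probe of each gene, which stood for it in the test, was at 0.09 and -0.06.

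**Figure D1:**
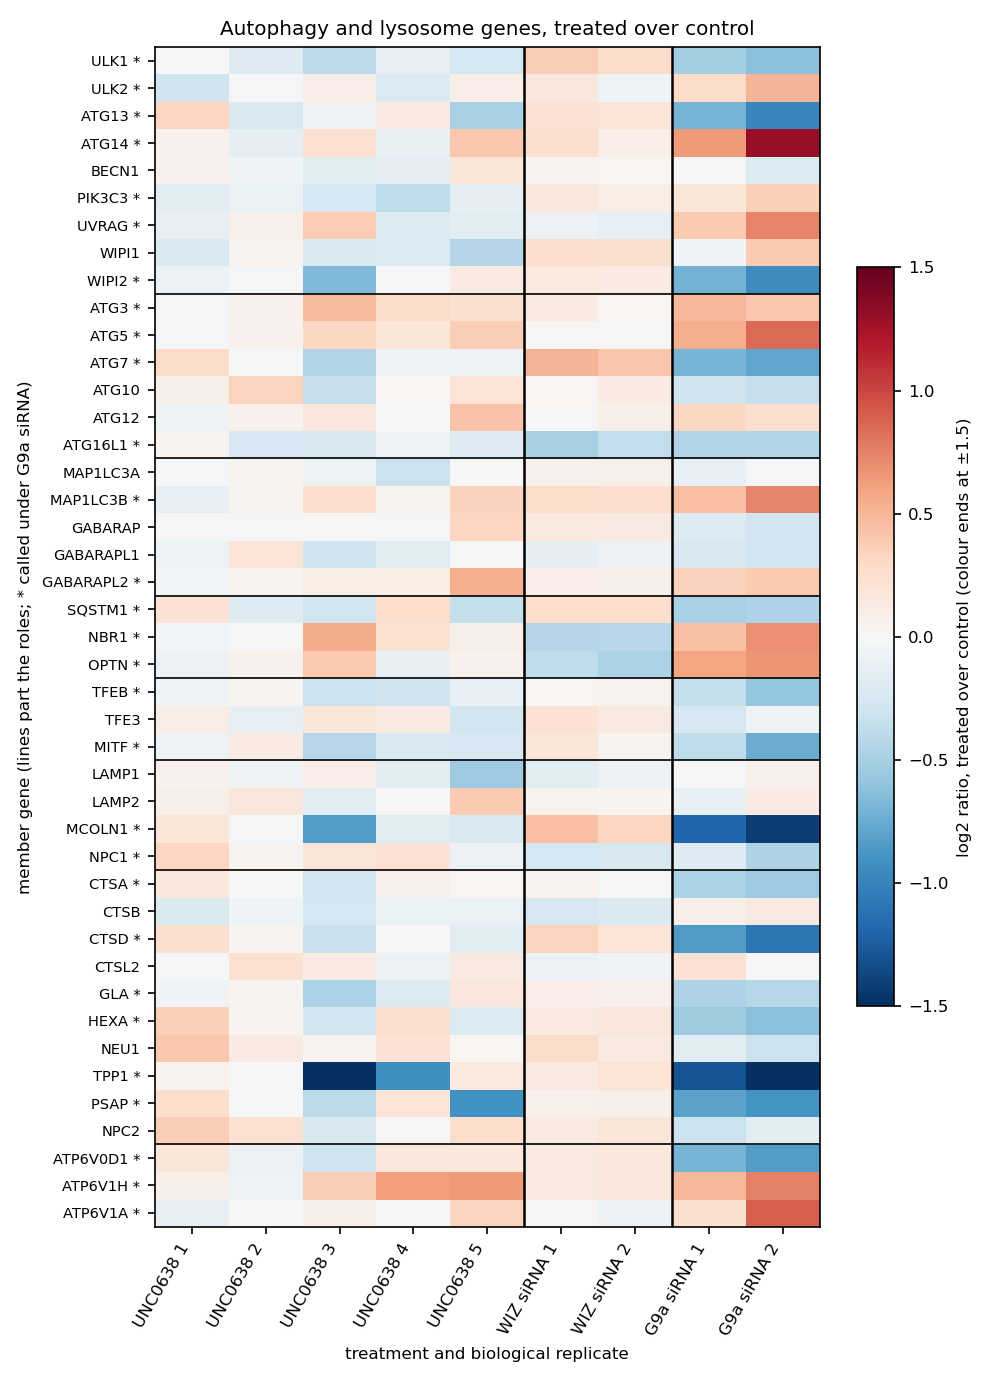
Log2 ratio of treated over control for the 43 members (rows, parted by role) in the 9 biological replicates (columns, parted by treatment), from blue (lower) to red (higher), with colours ending at 1.5 in either direction. Rows marked with a star are the 29 members called under G9a siRNA, and the strongest colours lie in the 2 G9a columns and in UNC0638 replicate 3.

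No member was called under WIZ siRNA either, beside 0.615% of all features. At an unadjusted p under 0.05, 2 members were higher (ULK1 and ATG7) and 5 lower (ATG16L1, NBR1, OPTN, NPC1 and CTSB), beside 2.97% and 5.11% of all features. The mean ratio was above 0 for 33 of 43 members, with a median of 0.09, against 0.01 over all features.

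The lowest of these were a scaffold of the LC3 conjugation enzyme and a pair of cargo receptors. ATG16L1, which places that enzyme on the membrane, was at -0.50 and -0.37 in the 2 replicates (mean -0.44, SE 0.09, adjusted p = 0.0849). NBR1 was at -0.43 in both replicates and OPTN at -0.39 and -0.48. Higher ratios stood for ATG7, the E1-like activating enzyme, at 0.51 and 0.42, for MCOLN1 at 0.45 and 0.32, and for ULK1 at 0.37 and 0.29. With a dye effect of each gene taken out in a fit over the 13 arrays, 4 members passed, all lower, beside 3.34% of all features: ATG16L1 (adjusted p = 0.0352), NBR1 (0.0132), OPTN (0.0483) and the protease CTSB. Both orientations of a replicate entered that fit as separate arrays. MAP1LC3B was at 0.27 and 0.25, WIPI1 at 0.25 and 0.24 and TP53INP2 at 0.49 and 0.40, all above 0 and none called. The MAP1LC3B values are of a probe that also matches MAP1LC3B2, and a probe assigned to MAP1LC3B alone, given below, lay near 0.

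Under G9a siRNA 29 of 43 members were called, 12 higher and 17 lower, which is 67.4% of them. The share over all features was 33.2% (15% higher and 18.2% lower), and 51.3% over the 15861 features well above background on every array, which hold 42 of the members. The autophagy machinery split evenly, with 10 of 26 higher and 8 lower. The lysosomal genes were mostly lower, with 2 of 17 higher and 9 lower. Centring each array on its median in place of the loess curve gave 7 higher and 18 lower over all members, and over all features 2914 higher and 6594 lower in place of 4339 and 5267.

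The G9a arrays have 1 dye orientation, and the number of calls changed with the replicates entered. Over the 43 genes, which share these arrays, replicates 1 and 2 correlated at r = 0.951. Without G9a replicate 2, 0 of the 28931 features passed limma's adjusted threshold, with 7223 features and 19 members at an unadjusted p under 0.05. Without replicate 1, 19 members passed. With a dye effect of each gene taken out in the fit over the 13 arrays, 7 members remained, a share near that of all features, 15.4%. They were ATG14, ATG3, MAP1LC3B, NBR1, TFEB, MCOLN1 and TPP1. The UNC0638 replicates that were not dye-swapped also entered the dye estimate, so differences between array sets can enter it. With the array set as a block 14 remained, beside 16.4%. ATG14, MAP1LC3B, TFEB and MCOLN1 passed in each of these 3 fits. The share of all features that passed in all 3 was not counted. With the array set as a block TFEB was near the threshold (adjusted p = 0.0497, limma over all kept probes). A second probe of MAP1LC3B and one of TFEB did not pass in all 3. The dye and set terms were not fitted together. The set term rests on the UNC0638 replicates alone, whose sets also differ in dye orientation. Dye and treatment cannot be told apart within the G9a arrays themselves.

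Among the genes of initiation and nucleation, 7 of 9 were called. The counts by role, here and in the paragraphs below, stand beside 33.2% of all features called (15% higher and 18.2% lower). The share called was 51.3% among features well above background on every array. ULK1, the kinase at the head of the pathway, fell to -0.52 and -0.62 in replicates 1 and 2, and its partner ATG13 fell to -0.69 and -0.98. ULK2 rose to 0.28 and 0.51. The pair of related kinases thus lay on opposite sides of 0, although another ULK2 probe was at -0.01. ATG14, which directs the PIK3C3 complex to autophagy, had the highest ratio among the members' tested probes, at 0.64 and 1.30, for a mean of 0.97 (SE 0.17, adjusted p = 0.00376, 1.96 times the control level). Its log2 ratio was 1.01 with the dye effect taken out (adjusted p = 0.00841). Other members of that complex moved less: PIK3C3 rose to 0.18 and 0.36 and UVRAG to 0.40 and 0.74, while BECN1 was at 0.02 and -0.21 and was not called. WIPI2, which recruits ATG16L1, fell to -0.71 and -0.94, and its other probe gave a mean of -0.76. WIPI1 was at -0.07 and 0.40, with the replicates on opposite sides of 0 (mean 0.16, interval -0.12 to 0.45, adjusted p = 0.363).

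In the conjugation machinery 2 genes rose and 2 fell. ATG3, the E2-like enzyme that loads LC3, rose to 0.50 and 0.40, and ATG5, which is joined to ATG12, to 0.55 and 0.85. ATG7 fell to -0.70 and -0.78 and ATG16L1 to -0.45 in both replicates. The ATG7 value came from its brighter probe, and another probe, whose annotation also names VGLL4, was at 0.22. ATG12 and ATG10 were not called by their tested probes (means 0.28 and -0.32), while a second probe of each was called higher, at 1.04 and 0.42. For ATG7 and ATG10 the probes thus differ in sign, and the second ATG12 probe was above the tested probe of ATG14.

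Of the 5 ATG8 genes, MAP1LC3B and GABARAPL2 rose. MAP1LC3B was at 0.45 and 0.73 in the 2 G9a replicates, for a mean of 0.59 (SE 0.12, adjusted p = 0.0057), above all 5 UNC0638 values. The probe behind these numbers also matches the near-identical MAP1LC3B2 and is placed at chr12:117014181-117014240 of build 37.1. A probe assigned to MAP1LC3B alone (chr16:87437440-87437499) was at 0.61 and 0.86 under G9a siRNA (adjusted p = 0.00849), at 0.22, 0.02, 0.80, 0.34 and 0.08 under UNC0638 and at -0.03 and 0.00 under WIZ siRNA. Both probes thus rose under G9a siRNA, and the WIZ value near 0.26 of the shared probe was not seen in the other. With the dye effect taken out, the 2 probes were at 0.52 (adjusted p = 0.034 in the fit over all kept probes) and 0.82 (adjusted p = 0.0249), and with the array set as a block the second had an adjusted p of 0.0594. GABARAPL2 rose to 0.34 and 0.39. GABARAP and GABARAPL1 were at means of -0.25 and -0.27 and were not called. MAP1LC3A was not well above background on the G9a arrays.

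All 3 cargo receptors were called, in different directions. SQSTM1, the p62 receptor, fell to -0.49 and -0.47 by a probe that also names C5orf45. NBR1 rose to 0.44 and 0.68 and OPTN to 0.59 and 0.67, both of which were below 0 under WIZ siRNA. Of the MiT/TFE factors TFEB fell to -0.35 and -0.58 (mean -0.46, SE 0.10, adjusted p = 0.00772) and MITF to -0.38 and -0.75. TFE3 was at -0.25 and -0.08 and was not called. Probes disagree here: another TFEB probe was at 0.05, the other MITF probes were at 0.19 and -0.02, and a second TFE3 probe was called at -0.62.

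**Figure D2:**
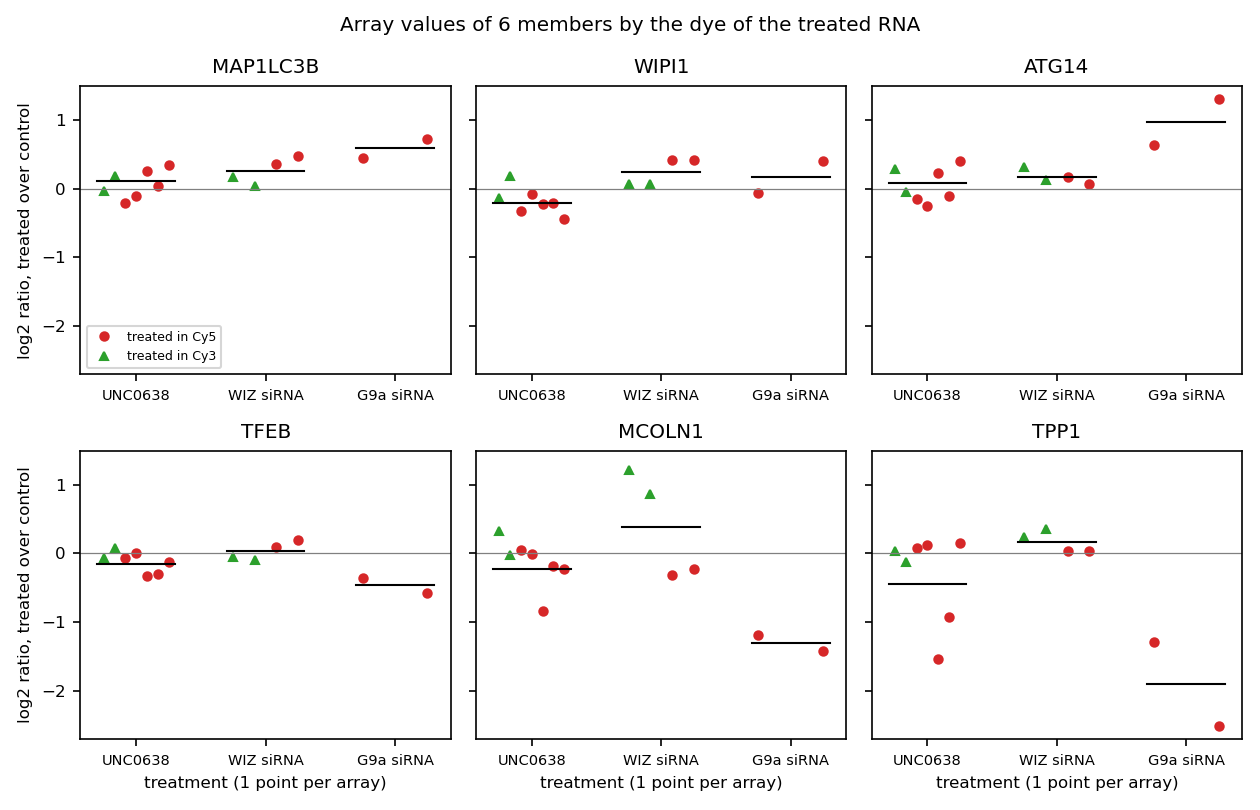
Log2 ratio of treated over control on each of the 13 arrays for MAP1LC3B, WIPI1, ATG14, TFEB, MCOLN1 and TPP1, by treatment, with red circles for the treated RNA in Cy5, green triangles for Cy3 and a black line at the mean of the biological replicates. MCOLN1 shows the WIZ arrays on opposite sides of 0 by dye, at 1.21 and 0.87 in Cy3 and -0.32 and -0.22 in Cy5, and the G9a arrays at -1.18 and -1.42.

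Lysosomal membrane proteins were divided between 2 that fell and 2 near 0. MCOLN1 fell to -1.18 and -1.42, for a mean of -1.30 (SE 0.19, adjusted p = 0.00301, 0.406 of the control level), below all 5 UNC0638 values. It was at -0.91 with the dye effect taken out (adjusted p = 0.0237) and had 1 probe, at chr19:7593764-7593823 of build 37.1. NPC1, a cholesterol exporter, fell to -0.20 and -0.46. The abundant glycoproteins LAMP1 and LAMP2 were at means of 0.03 and 0.00, LAMP1 being the member with the most TCACGTG matches, although a dimmer LAMP2 probe was called at 0.34.

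Hydrolases and luminal proteins had 6 of 10 members lower and 0 higher, beside 18.2% and 15% of all features. With the dye effect taken out, TPP1 alone of these 6 was called. The adjusted p of the others in that limma fit ran from 0.0536 (GLA) to 0.441 (PSAP). TPP1 fell to -1.29 and -2.51, for a mean of -1.90 (SE 0.40, adjusted p = 0.00721), the lowest among the members' tested probes. Its other probe, at chr11:6634393-6634452 of build 37.1, was at -0.27 and was not called, so the size rests on 1 probe. The aspartic protease CTSD fell to -0.85 and -1.08, and the saposin precursor PSAP to -0.80 and -0.90. CTSA, the protective protein, fell to -0.48 and -0.54, the hexosaminidase subunit HEXA to -0.54 and -0.63, and the galactosidase GLA to -0.47 and -0.42. PSAP and CTSA had second probes that were called in the same direction (-1.10 and -0.83). NEU1 and NPC2 had means of -0.25, and CTSB and CTSL2 (now CTSV) means of 0.11 and 0.12, none of them called.

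The V-ATPase, which acidifies the lysosome, gave 1 subunit lower and 2 higher. ATP6V0D1, of the membrane sector, fell to -0.70 and -0.83, while a second probe was at -0.14 and was not called. ATP6V1H and ATP6V1A, of the cytosolic sector, rose to 0.50 and 0.76 and to 0.23 and 0.89. Over all 29 called members, 13 had another kept probe. Those of 6 (ATG13, ATG5, CTSA, MAP1LC3B, PSAP and WIPI2) were called in the same direction, and 4 (MITF, ATG7, ULK2 and TFEB) had a probe of the opposite sign.

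**Figure D3:**
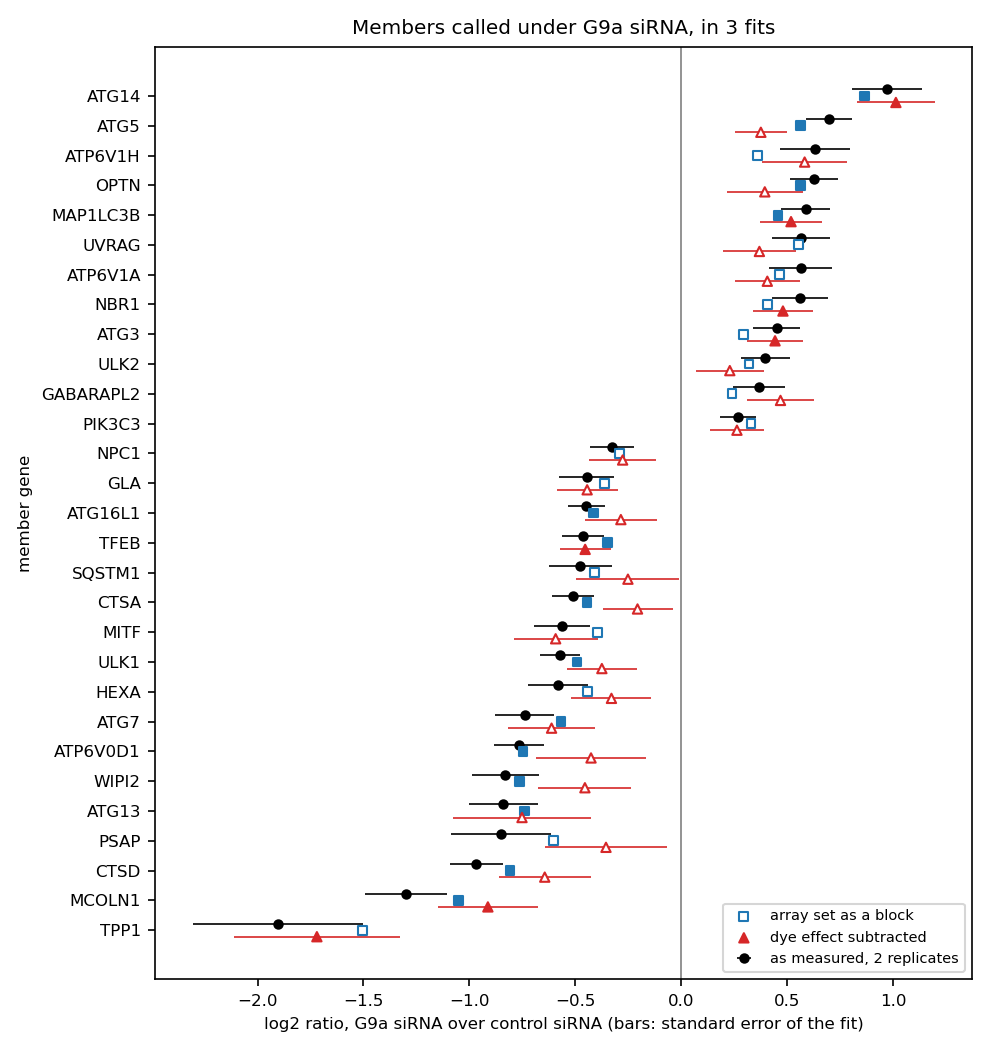
The 29 members called under G9a siRNA (rows), with the log2 ratio as measured (black circles), with the array set as a block (blue squares) and with the dye effect subtracted (red triangles); bars are standard errors of the fit, and filled squares and triangles have an adjusted p under 0.05. No member changed sign with the dye effect subtracted, and 7 triangles and 14 squares are filled.

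Both G9a arrays had the treated RNA in Cy5, so their values are set beside the difference by dye on the WIZ arrays. On the WIZ arrays, where both orientations were run, 27 of 43 members had opposite signs in the 2 dyes, as had 69.9% of all features. CTSD, for instance, was at 1.09 and 0.70 on the arrays with WIZ siRNA in Cy3 and at -0.42 and -0.31 on those with it in Cy5. PSAP was at 1.08 and 0.74 in Cy3 and at -0.94 and -0.57 in Cy5. The sign of the 2 Cy5 arrays was that of the G9a ratio for 21 of the 29 called members (72.4%), beside 73% of all features called. Across the 43 genes, which share these arrays and are not independent, r between the G9a mean and the difference by dye on the WIZ arrays, Cy5 minus Cy3, was 0.639, and 0.417 over all features. The dye-swapped UNC0638 replicates 1 and 2 gave another picture. Over the members, r between their difference by dye and that of the WIZ arrays was 0.229. On those UNC0638 arrays CTSD averaged 0.16 in Cy3 and 0.12 in Cy5, and PSAP 0.29 and -0.03. MAP1LC3B, ATG14 and TFEB differed less by dye on the WIZ arrays than CTSD and PSAP. MAP1LC3B, by the shared probe, was at 0.17 and 0.03 in Cy3 and at 0.36 and 0.47 in Cy5. It was thus higher in Cy5, the dye in which its G9a ratio was above 0. ATG14 was at 0.31 and 0.13 in Cy3 and at 0.18 and 0.07 in Cy5. TFEB was at -0.05 and -0.09 in Cy3 and 0.10 and 0.20 in Cy5, on opposite sides of 0. UNC0638 replicate 3, of the same array set and orientation, correlated with the G9a replicates over the 43 genes (r = 0.86 and 0.851) about as over all features (0.876 and 0.843). What part dye or array set has in the G9a values beyond these fits was not tested.

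**Figure D4:**
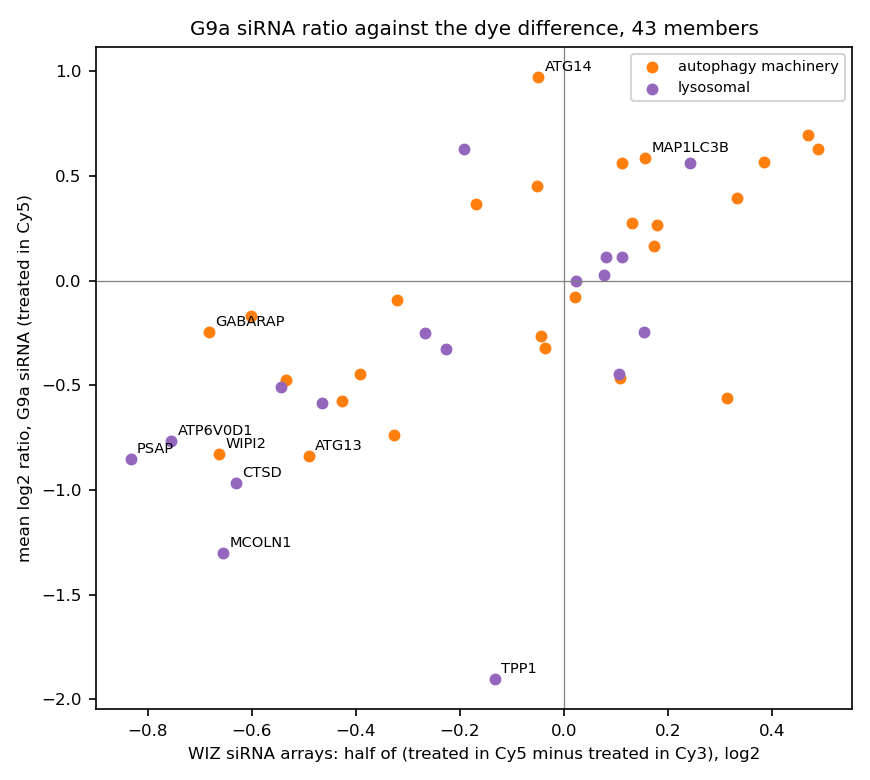
Mean log2 ratio under G9a siRNA (vertical) against 0.5 times the difference between the WIZ siRNA arrays of the Cy5 and the Cy3 orientation (horizontal, log2), 1 point per member, orange for the autophagy machinery and purple for lysosomal genes. Points run from lower left to upper right (r = 0.639 over 43 genes), with ATG14 and TPP1 far from 0 on the vertical axis at small dye differences.

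The difference between G9a siRNA and UNC0638 was called for 13 of 43 members (30.2%), 4 higher and 9 lower. The share was 12.7% over all features (6.08% higher and 6.58% lower) and 20.7% over those well above background on every array. Times, controls and dye design differ between the 2 treatments. The difference was -1.08 for MCOLN1 (adjusted p = 0.0246), -0.92 for CTSD (0.0175), -0.79 for ATP6V0D1 (0.0188) and 0.89 for ATG14 (0.0264). It was 0.48 for PIK3C3 (0.0248), being above 0 in both G9a replicates and below 0 in all 5 UNC0638 replicates. The count moved from 0 to 26 as single replicates were left out: it was 3 without UNC0638 replicate 1 or 2, 26 without replicate 3, 2 without replicate 4 or without either WIZ replicate, 5 without G9a replicate 1 and 0 without G9a replicate 2. No member was called for the difference between WIZ siRNA and UNC0638, beside 0.84% of all features, with 9 of 43 members and 3248 of 28931 features at an unadjusted p under 0.05.

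A wider list of 161 autophagy, lysosome and mTORC1 genes outside the 43 was written by hand, and 157 of its genes were measured. Under UNC0638 3 of 157 were called (1.91%), all higher, which is below the 3.65% of all features. Among them were RRAGD, a GTPase that recruits mTORC1 to the lysosome, at 0.26, 0.14, 0.45, 0.46 and 0.19 (adjusted p = 0.0309), and the V-ATPase subunit ATP6V1G1 at 0.11, 0.15, 0.47, 0.28 and 0.31 (0.0378). All 5 replicates of both genes were above 0. Under WIZ siRNA 1 of 157 was called (0.637%), beside 0.615% of all features. It was the protease CTSO, which fell to -0.56 and -0.49 (adjusted p = 0.0255), whereas under UNC0638 it was above 0 in all 5 replicates (mean 0.21, adjusted p = 0.058).

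Under G9a siRNA 95 of the 157 were called, 38 higher and 57 lower, a share of 60.5%, beside 33.2% of all features and 51.3% of those well above background on every array. A separate fit over 15876 such well-measured features called 3878 higher and 4517 lower. Of other hydrolases and their cofactors, 6 of 41 rose (14.6%) and 17 fell (41.5%), beside 15% and 18.2% of all features, dim ones included. The largest changes were in VPS18, which tethers membranes for fusion with the lysosome (-1.31 and -1.64), the V-ATPase subunits ATP6V0B (-1.25 and -1.47) and ATP6V0E2 (-1.27 and -1.41), the mTORC1 brake TSC2 (-0.97 and -1.57), the hydrolase NAGLU (-1.15 and -1.30) and the AMPK catalytic subunit PRKAA2 (0.77 and 1.52). TP53INP2 was at -0.14 and -0.15 and was not called.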

How the data were processed

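The deposited array files give, for each channel, an uncorrected mean spot intensity and a median intensity of the surrounding background, per the file headers. A log2 channel ratio made by the authors stands beside them, per the file headers, and a table of the whole series deposited by the authors holds log10 ratios. The latter ran as control over treated on the set 1 arrays (r with each array's own turned log2 ratio from -0.877 to -0.918) and as treated over control on the set 2 arrays (0.925 to 0.971), and was turned accordingly. Its centring, and the software, slides and scan batches, are not given in the sources used here. 0 columns of the table lacked a sample.

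Background was corrected with normexp (offset 50), followed by loess within each array (limma 3.58.1 in R 4.3.3), with weight 0 for control spots. Spots of a probe were averaged, ratios turned to treated over control by the labelled dyes, and both orientations of a replicate averaged. A probe was kept where its signal exceeded the background by 2.6 background SDs on at least 0.5 of the arrays of 1 RNA group. The brightest kept probe stood for a gene. The 9 biological replicates entered a single lmFit and eBayes fit with all treatments sharing the spread. The script for this fit was run first on simulated data with known changes. The number of arrays limits the precision, and p-values of fits over the 9 replicates measure the spread between replicates that the labels call biological. The fit with the dye term took the 13 arrays singly, with the replicate as a random block (correlation within a block -0.107). Both orientations of a replicate thus counted separately there, and its p-values do not measure the spread between biological replicates alone.

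The members and lists were chosen with earlier results of these data known. Named with every replicate's value were members called in any treatment, MAP1LC3B, WIPI1 and TP53INP2, the 5 members with the largest ratios per treatment, and up to 6 called genes per treatment of the wider list, of which 1 is not reported here. The alternatives were other background, loess and probe choices, the authors' ratios, dye, array set and replicate number as terms, separate fits, and leaving out each replicate. Promoters came from RefSeq (GRCh38.p14), first listed start per gene.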

Additional observations from a re-analysis of the deposited data

Results flagged for a closer look

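In 3 cases among 47 genes, 1 UNC0638 replicate stood apart from the other 4 by Dixon's criterion (a gap above 0.71 of the range), which chance does in about 1 of 20 groups. WIPI2 was at -0.66 in replicate 3. GABARAP was at 0.33 and GABARAPL2 at 0.54 in replicate 5.

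For 13 members (30.2%) the response to G9a siRNA differed from that to UNC0638 by the test of the difference. It differed for 12.7% of all features and 20.7% of those well above background on every array. Higher under G9a siRNA were ATG14 (difference 0.89), OPTN (0.56), ATG5 (0.51) and PIK3C3 (0.48). Lower were MCOLN1 (-1.08), CTSD (-0.92), ATP6V0D1 (-0.79), ATG13 (-0.77), WIPI2 (-0.70), ATG7 (-0.68), HEXA (-0.61), CTSA (-0.51) and NPC1 (-0.46).

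For 25 members both WIZ siRNA replicates lay on 1 side of 0 and both G9a siRNA replicates on the other, and the difference was not tested. That is 58.1% of the members, beside 34.8% of all features and 45.6% of those well above background on every array. The G9a mean minus the WIZ mean was positive for 5: OPTN (1.06), NBR1 (1.00), UVRAG (0.67), CTSB (0.35) and CTSL2 (0.18). It was negative for 20 (46.5%, beside 20.3% of all features). Among the lysosomal genes it was -2.07 for TPP1, -1.69 for MCOLN1, -1.23 for CTSD, -0.93 for PSAP, -0.91 for ATP6V0D1, -0.73 for HEXA, -0.53 for GLA, -0.45 for NEU1 and -0.40 for NPC2. In the autophagy machinery it was -1.20 for ATG7, -1.05 for ATG13, -0.96 for WIPI2, -0.91 for ULK1, -0.74 for SQSTM1, -0.68 for MITF, -0.50 for TFEB, -0.39 for ATG10, -0.39 for GABARAP, -0.34 for TFE3 and -0.15 for MAP1LC3A, which was not well above background on the G9a arrays. The WIZ arrays were dye-swapped and the G9a arrays were not.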

How the results depend on the processing

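The count of 0 members called under UNC0638 became 2 with every kept probe as a feature (3.24% of all features called), and 1 with the array set as a block (4.93%) or in UNC0638 replicates 1 and 2 (set 1) alone (4.21%). Replicates 3 to 5 (set 2) alone gave 0, with 9 members and 4615 features at an unadjusted p under 0.05 and 0 features past limma's adjusted threshold. The array set took the place of the slide, and these set fits were chosen after seeing the data. The count under WIZ siRNA became 4 with the dye term (3.34% of all features), 22 in a fit of the WIZ replicates alone (23.7%), and ranged from 0 to 1 as single replicates were left out, being 1 without UNC0638 replicate 3. Under G9a siRNA, 29 became 7 with the dye term (15.4%) and 14 with the array set as a block (16.4%), and ranged from 0 to 31 as single replicates were left out. G9a siRNA minus UNC0638 fell from 13 to 3 with the authors' log2 ratio (5.45%) and 4 with the dye term (9.29%). It fell to 3 with the array set as a block (2.42%) and 2 on its own replicates (3.01%). That count ranged from 2 (2.82%) to 26 (28%) as single UNC0638 replicates were left out, and fell where an siRNA replicate was left out. WIZ siRNA minus UNC0638 gave 1 with the dye term (2.81%). Where 1 replicate of an siRNA group was left, it was assumed to vary like the other groups. The other settings kept each count within 1.5 times.

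Same-numbered replicates of different treatments deviated together little (r of 0.00449, 0.106 and -0.0311 over all features). Each r rests on 1 difference per treatment, replicate 1 minus replicate 2, and the G9a arrays are of another array set. It therefore cannot show whether the replicates were paired. With the replicate block, on replicates 1 and 2 of each treatment, 0 members were called under UNC0638 (2.72% of all features), 6 under WIZ siRNA (4.25%), 35 under G9a siRNA (47.5%) and 32 for G9a siRNA minus UNC0638 (36.8%).

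Sign changes were seen only in genes not called in that treatment. Under UNC0638, MAP1LC3B (by the probe shared with MAP1LC3B2) was at -0.0456 and TPP1 at 0.0292 in set 1 alone and in the replicate block. MCOLN1 was at 0.0818 in both and at 0.0364 with the dye term. TP53INP2 under UNC0638 was at -0.00392 without background correction, -0.0516 in the authors' log10 table, -0.00601 with the set block, -0.0667 in set 1 alone and in the replicate block, and between -0.0883 (without UNC0638 replicate 4) and 0.0913 (without UNC0638 replicate 5) as single replicates were left out. Under G9a siRNA it was at 0.0224 with the dye term, and WIPI1 was at -0.0684 without G9a replicate 2 and 0.395 without G9a replicate 1. The cause was not tested. A correction for probe GC content was void, because the probe sequence is given for only 74.4% of the tested members.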
